A study of Mus musculus with 54 samples.

Results

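The amino acid carriers of the late proximal tubule of the mouse kidney (the S3 segment) are described here by 9 genes. They were chosen by symbol: Slc7a13, which marks S3, the other brush-border carriers Slc3a1, Slc7a9, Slc1a1, Slc6a18 and Slc6a19, and the basolateral carriers Slc7a7, Slc7a8 and Slc3a2. Each has 1 of the 19068 rows of the expression table, and all 9 had a value above 0 in each of the 52 libraries.

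Laser capture took 70 to 80 tubules per sample that bound the proximal tubule lectin LTL but showed no SGLT2, which moves glucose in the early segments, and the total RNA of each sample was sequenced. All animals were male DBA mice, aged 14 weeks per the labels, and the diabetic mice were littermates of the others. Nondiabetic mice were Ins2+/+ and diabetic mice carried Ins2 Akita/+, an insulin gene mutation that gives a model of type 1 diabetes. Each kind was Sglt1+/+ (wild type) or Sglt1-/- (knockout for Slc5a1, the glucose carrier of S3), and the labels name no promoter or Cre for the knockout. Each of these 4 kinds received vehicle or dapagliflozin, an SGLT2 inhibitor, for 2 weeks (10 mg in each kg of diet). Semaglutide, which activates the GLP-1 receptor, was injected under the skin of a further set of wild-type Akita mice at 3 nmol per kg of body weight daily, also for 2 weeks. The labels list 54 samples, and 52 have values: 5 libraries in the Akita wild-type dapagliflozin and semaglutide groups and 6 in each other group. Whether samples came from separate animals is not stated, and p-values then measure only the spread between samples, which may be technical.

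The proximal tubule takes back nearly all filtered amino acids. Carriers of the brush border draw them into the cell, and carriers of the basolateral membrane pass them on to the blood. Some carriers are pairs of a heavy chain, which brings the pair to the membrane, and a light chain, which moves the amino acid. SLC3A1 (rBAT) is the heavy chain of the brush border: it pairs with SLC7A9 in the early segments, for cystine and cationic amino acids, and with SLC7A13 in S3, for cystine, aspartate and glutamate. SLC3A2 is the heavy chain of the basolateral side, where it pairs with SLC7A7, an exchanger of cationic for neutral amino acids, and with SLC7A8, an exchanger of neutral amino acids. SLC6A19 and SLC6A18 are sodium-driven carriers of neutral amino acids in the early and the late proximal tubule, and SLC1A1 takes up glutamate and aspartate. Faults of SLC3A1 or SLC7A9 cause cystinuria, faults of SLC7A7 cause lysinuric protein intolerance, and faults of SLC6A19 cause Hartnup disorder.

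The libraries matched their Slc5a1 labels and differed in their levels of early segment markers. Slc5a1 lay between 27.3 and 103 TPM (a transcript level per unit of gene length and of library) in the wild-type libraries and did not exceed 1.34 TPM in any knockout library. Slc5a2, which encodes SGLT2, ranged from 3.93 to 205 TPM although its protein was used to leave tubules out. Read depth is unknown, and TPM summed to 984400 to 2254000 per library. The share of mitochondrial ribosomal RNA lay between 20.3 and 52.3%. Scores were made from the mean log2(TPM + 1) of marker lists: 11 genes of the S1 and S2 segments (2.96 to 6.06 over libraries), 7 genes of S3 (7.19 to 9.16) and 56 genes of other cell types (3.23 to 4.80). Nondiabetic wild-type vehicle replicates 1 and 2 were highest in the score of other cell types, at 4.80 and 4.65. None of those markers was at 0 in every library. Of the thick ascending limb markers among them, Umod averaged 569.8 TPM, Egf 562.5 TPM and Slc12a1 267.5 TPM. The others of that segment in the score averaged 7.40 to 39.6 TPM.

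The 9 genes lie on 6 chromosomes (GRCm38, GENCODE vM21). Slc7a13 is on chromosome 4, bases 19818725 to 19842218, and Slc3a1 is on chromosome 17, bases 85028376 to 85064236. Slc7a9 is on chromosome 7, bases 35448796 to 35466036. Slc1a1 (bases 28835049 to 28913960) and Slc3a2 (bases 8706882 to 8723369) are on chromosome 19. Slc6a18 (bases 73661752 to 73678023) and Slc6a19 (bases 73679745 to 73704865) are neighbours on the same strand of chromosome 13, 1721 bases apart. Slc7a7 (bases 54369442 to 54417780) and Slc7a8 (bases 54722209 to 54781946) share a strand of chromosome 14, 304 kb apart. Genes on the opposite strand overlap Slc3a1 (Prepl), Slc1a1 (Gm5822 and 4430402I18Rik), Slc6a19 (Slc6a19os) and Slc7a7 (Oxa1l). The library kit keeps strand, but whether the counting used it is not stated, and reads of such partners may not have been separated.

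RefSeq start-site windows of 300 bases (250 before the start and 50 after it, GRCm38.p6) were at hand for 7 of the 9 genes, not for Slc7a13 and Slc6a18. Windows of 4 genes are shown because together they cover the patterns of variation between libraries described further on: Slc3a1 followed the S3 markers, Slc6a19 and Slc7a8 followed the S1 and S2 markers, and Slc7a9, a light chain partner of Slc3a1, followed neither. Capitals mark matches on either strand to 4 motifs. The half-site of the HNF1 factors was searched as GTTAAT. The core of HNF4 sites was searched as CAAAGT. The TATA box was searched as TATAAA, and the element bound by C/EBP and ATF factors as TGATGNAA. The windows lie at chr17:85028097-85028396 (plus strand), chr7:35448842-35449141 (plus strand, the first of 2 starts of Slc7a9 in the table), chr13:73692587-73692886 (minus strand) and chr14:54781837-54782136 (minus strand). The Slc6a19 window lies inside the gene as annotated by GENCODE, which starts at base 73704865 on the minus strand.
Slc3a1: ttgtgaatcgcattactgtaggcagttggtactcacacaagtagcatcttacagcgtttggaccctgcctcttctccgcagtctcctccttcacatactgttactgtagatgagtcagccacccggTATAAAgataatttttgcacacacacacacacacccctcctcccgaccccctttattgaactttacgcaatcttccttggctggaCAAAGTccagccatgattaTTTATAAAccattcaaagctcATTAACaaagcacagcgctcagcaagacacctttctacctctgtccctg
Slc7a9: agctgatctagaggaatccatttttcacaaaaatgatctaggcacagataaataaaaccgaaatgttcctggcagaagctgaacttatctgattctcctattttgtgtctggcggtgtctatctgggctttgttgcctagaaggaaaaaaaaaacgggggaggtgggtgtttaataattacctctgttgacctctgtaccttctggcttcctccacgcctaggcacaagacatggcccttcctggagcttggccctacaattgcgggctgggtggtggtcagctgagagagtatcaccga
Slc6a19: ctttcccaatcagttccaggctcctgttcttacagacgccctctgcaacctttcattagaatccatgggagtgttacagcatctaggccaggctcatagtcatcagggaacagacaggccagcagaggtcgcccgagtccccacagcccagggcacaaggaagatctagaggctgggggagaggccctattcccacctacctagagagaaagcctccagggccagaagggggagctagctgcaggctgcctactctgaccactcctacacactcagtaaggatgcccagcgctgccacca
Slc7a8: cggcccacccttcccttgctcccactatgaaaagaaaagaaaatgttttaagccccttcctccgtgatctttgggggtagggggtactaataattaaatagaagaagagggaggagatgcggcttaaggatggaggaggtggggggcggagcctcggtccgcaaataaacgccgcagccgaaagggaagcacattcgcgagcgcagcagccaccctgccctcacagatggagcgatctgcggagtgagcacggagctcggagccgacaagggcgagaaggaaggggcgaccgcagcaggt

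Only the Slc3a1 window of these 4 held marked matches. It held ATTAAC, the other strand of GTTAAT, at base 2 after the start, CAAAGT at -39, and TATAAA at -124 and -18, the latter overlapping TTTATA, its other strand, at -20. Of the 32851 mouse windows of this length, 7.1% held GTTAAT, 14.4% CAAAGT, 13.6% TATAAA and 3.97% TGATGNAA, so such matches are found in many genes. Of the 12 windows of the 7 genes, those of Slc7a7 held the other matches, and those of Slc1a1 and Slc3a2 held none of the 4 motifs. The Slc3a2 window, like that of Slc6a19, lies inside its gene as annotated by GENCODE. Another 6 motifs were searched on both strands and are not marked. Of the windows shown, that of Slc3a1 held matches to the AP-1 site and the MAF half-site named next, that of Slc6a19 to the steroid receptor half-site, that of Slc7a9 to the nuclear receptor half-site, and that of Slc7a8 to none of them. The site of AP-1 factors (TGACTCA) occurred in 5.2% of windows. A half-site of MAF factors (TGCTGA) occurred in 19.5%, and the longer form with a final C in 4.67%. The E-box of bHLH factors (CACGTG) occurred in 7.15% of windows. A steroid receptor half-site (AGAACA) occurred in 19%, and a nuclear receptor half-site (AGGTCA) in 16.3%. A match is a string of letters and no evidence of binding, and a window without one says nothing about a factor elsewhere.

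Slc7a13, its heavy chain Slc3a1 and Slc6a18 were the most abundant of the 9 carriers. Slc7a13 averaged 913 ± 299 TPM (SD, n = 52 libraries; range 223 to 1529) and ranked 71 of all genes in the table. Slc3a1 averaged 868 ± 216 TPM (range 213 to 1180, rank 79) and Slc6a18 averaged 851 ± 189 TPM (range 363 to 1297, rank 84). These top 3 could not be put in order: Slc7a13 exceeded Slc3a1 in 31 of 52 libraries, and Slc3a1 exceeded Slc6a18 in 33 of 52. The glutamate carrier Slc1a1 followed at 351 ± 69.6 TPM and was below Slc6a18 in all 52 libraries.

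The early light chain Slc7a9 and the basolateral genes were far lower. Slc7a9 averaged 57.2 ± 16 TPM, below Slc1a1 in all 52 libraries. The basolateral heavy chain Slc3a2 averaged 32.3 ± 10.3 TPM, and Slc7a9 exceeded it in 46 of 52 libraries. The light chain Slc7a7 averaged 17.7 ± 8.38 TPM, below Slc3a2 in 47 of 52 libraries. Slc6a19 averaged 16.1 ± 15 TPM and was lower than Slc7a7 in 33 of 52, so this pair was not ordered beyond its spread. Slc7a8 came last at 5.94 ± 4.98 TPM, below Slc6a19 in 51 of 52 libraries.

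Within each functional pair, the late form prevailed in every library. The median ratio of Slc7a13 to Slc7a9, both light chains of Slc3a1, was 16.5, and that of Slc6a18 to Slc6a19 was 83.3. The brush-border heavy chain Slc3a1 was at a median of 29.5 times the basolateral Slc3a2. The ratio of Slc7a13 to Slc7a9 had group medians of 14.5 to 19.5, and that of Slc6a18 to Slc6a19 had group medians of 54.6 to 107 with wide spread inside each group (group SDs of 0.91 to 1.76 on the log2 scale).

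The 9 genes differed in how much they varied between libraries of the same group. The SD within groups on the log2(TPM + 1) scale was 1.04 for Slc6a19 and 0.96 for Slc7a8, more than for 96% and 94.6% of the tested genes. Their highest library stood 18.7-fold and 18.3-fold above their lowest. Slc1a1 had the smallest SD of the 9 at 0.33, and Slc7a13 had 0.57 against a median of 0.43 over all tested genes.

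**Figure D1:**
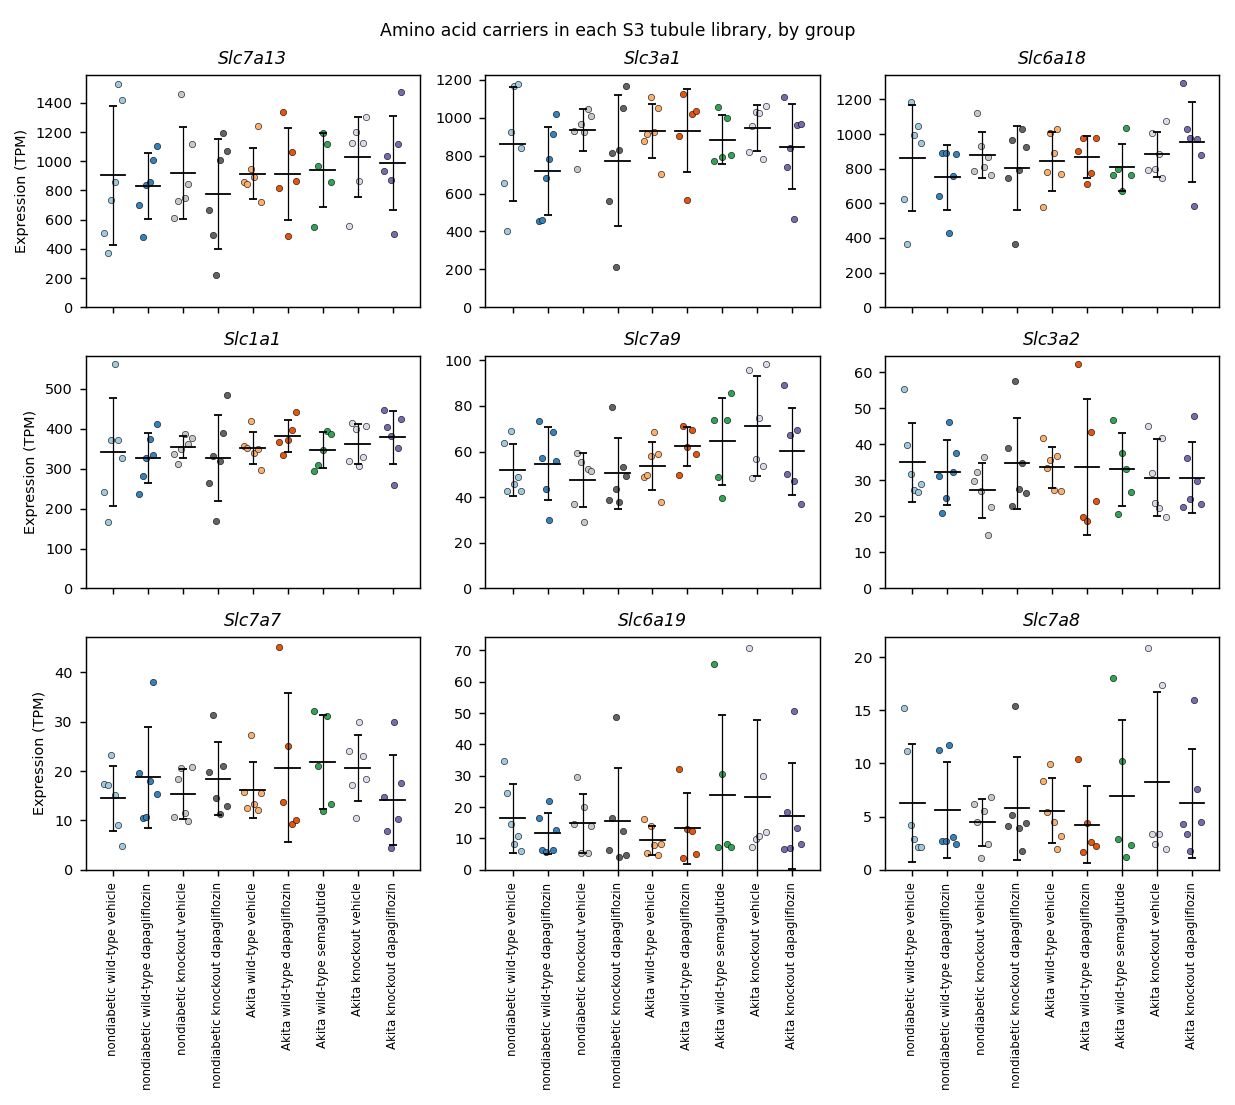
Expression in TPM (linear axis from 0) of the 9 carriers in each of the 9 groups; points are single libraries, long bars the group means and whiskers 1 SD, cut at 0. The groups overlap in every panel, and single high libraries stand out for Slc6a19 and Slc7a8, up to 70.7 and 20.8 TPM.

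Slc7a13 had overlapping levels in all groups, which does not show that the levels were equal. Its group means ran from 776 TPM in nondiabetic knockout dapagliflozin samples to 1030 TPM in Akita knockout vehicle samples. In nondiabetic wild-type vehicle samples the lowest, median and highest libraries were at 370, 795 and 1529 TPM, and in Akita wild-type vehicle samples at 720, 873 and 1241 TPM. The nondiabetic group thus enclosed the whole Akita group. In nondiabetic knockout vehicle samples these values were 613, 798 and 1463 TPM, and in Akita knockout vehicle samples 558, 1126 and 1301 TPM. With dapagliflozin they were 479, 846 and 1106 TPM in nondiabetic wild-type samples, 223, 838 and 1194 TPM in nondiabetic knockout samples and 499, 987 and 1478 TPM in Akita knockout samples. These groups overlapped as widely as the vehicle groups. The 5 Akita wild-type dapagliflozin libraries were at 820, 1341, 489, 1064 and 865 TPM, and the 5 semaglutide libraries at 547, 969, 1193, 1121 and 860 TPM. No treatment set these libraries apart from the vehicle libraries.

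Differences between groups were tested with limma on log2(TPM + 1) over 15424 genes. A gene was called where its p, adjusted over all of these by the method of Benjamini and Hochberg, was under 0.05. An F test over the 9 groups, which called 0.285% of genes, called 0 of the 9 carriers, with adjusted p from 0.896 for Slc7a9 to 1.00 for Slc7a8 and unadjusted p of 0.229 or more. Over the 20 single comparisons below, 0 of 180 carrier differences were called and 2 had an unadjusted p under 0.05, both for Slc7a9 with diabetes. In none of the 14 comparisons of 1 group with another did a carrier have groups that did not overlap, while some genes did in each. Their shares were 0.733, 0.415, 0.298 and 0.201% of all genes for diabetes, 0.149, 0.24, 0.383 and 0.408% for knockout, 0.201, 0.156, 0.272 and 0.188% for dapagliflozin (in the order of the groups given below) and 0.746 and 0.72% for semaglutide against vehicle and against dapagliflozin. In tissue of this kind, fewer cells of a type and less RNA per cell cannot be told apart.

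Diabetes gave the largest number of calls over all genes and none among the carriers. Averaged over the 4 pairs of Akita and nondiabetic groups, 0.966% of genes were called and 0 of 9 carriers. In the single pairs, 0 of 9 were called against 0.389% of genes (wild-type vehicle), 0% (knockout vehicle), 0.00648% (wild-type dapagliflozin) and 0% (knockout dapagliflozin). The median averaged difference of the 9 carriers was log2 0.15, beside 0.03 over all genes.

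Slc7a9, the light chain of the early segments, came closest to a difference. Its 24 nondiabetic libraries averaged 51.2 ± 13.2 TPM and its 23 Akita libraries without semaglutide 61.8 ± 16.5 TPM, and 16 of these 23 lay above the nondiabetic median. The averaged difference was log2 0.27 (SE 0.11, 95% interval 0.05 to 0.49), or 1.21-fold, with an unadjusted p of 0.0181 and an adjusted p of 0.261 in limma. Of the 9 carriers, 1 had an unadjusted p under 0.05 there, beside 13.4% of all genes. In knockout vehicle samples the lowest, median and highest nondiabetic libraries were at 29.1, 51.8 and 59.6 TPM and the Akita libraries at 48.5, 65.8 and 98.5 TPM. The ranges overlapped between 48.5 and 59.6 TPM. That difference was log2 0.57 (SE 0.22), with an unadjusted p of 0.0123 (6.65% of all genes were under 0.05) and an adjusted p of 0.697. In wild-type vehicle samples it was log2 0.05 (SE 0.22), from 52 ± 11.4 to 53.6 ± 10.6 TPM (SD, n = 6 each). The test of whether diabetes acted differently in knockout and wild type gave log2 0.26 (SE 0.22) and an adjusted p of 1.00 for Slc7a9.

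The other 8 carriers had averaged diabetes differences between log2 -0.02 for Slc3a2 and 0.24 for Slc7a13. For Slc7a13 the 95% interval ran from -0.09 to 0.56 (858 ± 341 TPM in 24 nondiabetic and 965 ± 260 TPM in 23 Akita libraries; adjusted p 0.544). Slc3a1 had log2 0.22 (SE 0.13), Slc1a1 0.17 (SE 0.09) and Slc6a18 0.15 (SE 0.11). Slc6a19 had 0.01 (SE 0.29), Slc7a7 0.04 (SE 0.18) and Slc7a8 0.05 (SE 0.27). With these larger errors they cannot be set apart from the values before them. The score of other cell types moved with diabetes, from 3.88 ± 0.36 (3.31 to 4.80) in nondiabetic to 3.66 ± 0.23 (3.23 to 4.04) in Akita libraries. Of its 56 genes, 51 had a value below 0 in this comparison and 0 were called. With that score added to the fit the difference of Slc7a13 was -0.08 (SE 0.12) and that of Slc3a1 0.02 (SE 0.12), while that of Slc7a9 stayed at 0.27 (SE 0.12). The score differed with diabetes and had r = -0.73 with Slc7a13 over libraries. Cell mix and carrier level therefore cannot be told apart by this fit, and the cause was not tested. Without nondiabetic wild-type vehicle replicates 1 and 2 the value of Slc7a13 was 0.13 (SE 0.15).

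**Figure D2:**
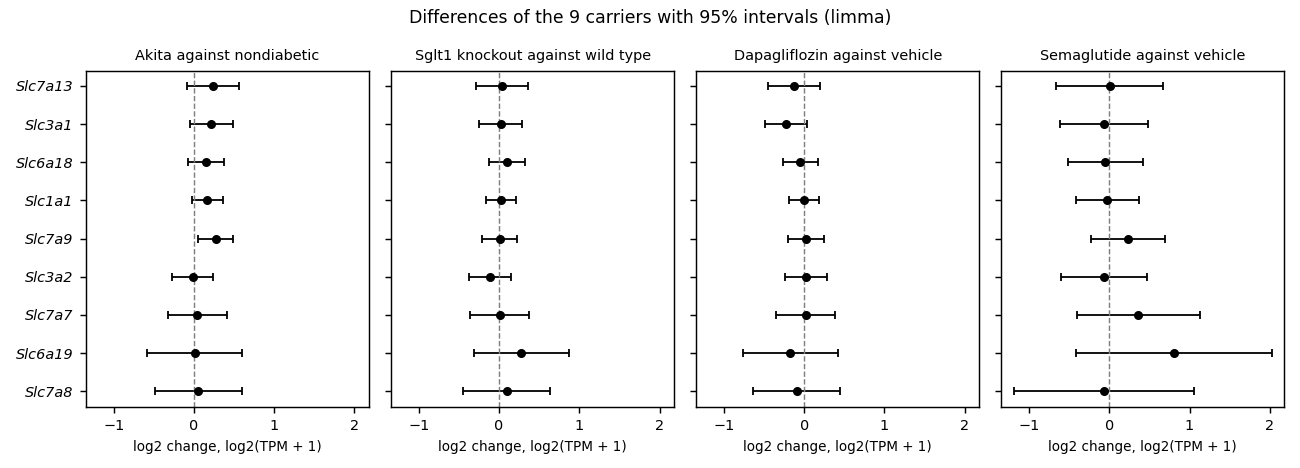
Log2 differences of the 9 carriers on the log2(TPM + 1) scale with 95% intervals from limma, for diabetes, Sglt1 knockout and dapagliflozin, each averaged over its 4 pairs of groups, and for semaglutide in Akita wild-type mice. Every interval but that of Slc7a9 with diabetes, 0.05 to 0.49, includes 0, and those of Slc6a19 and Slc7a8 are the widest.

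Loss of Sglt1 left no detected difference in the carriers. Averaged over 4 pairs, 0 of 9 were called against 0.0519% of genes, and 0 of 9 had an unadjusted p under 0.05. In the single pairs 0 of 9 were called against 0.0195% of genes (nondiabetic vehicle), 0.0259% (Akita vehicle), 0.0324% (nondiabetic dapagliflozin) and 0.0195% (Akita dapagliflozin). The averaged difference of Slc7a13 was log2 0.04 (95% interval -0.29 to 0.36) and that of Slc3a1 0.02 (-0.25 to 0.28). The values ran from log2 -0.12 for Slc3a2 to 0.28 (SE 0.29) for Slc6a19. In Akita vehicle samples Slc6a19 had log2 0.88 (SE 0.58, adjusted p 0.999), from 9.39 ± 4.71 TPM in wild type to 23.3 ± 24.6 TPM in knockout samples. In the knockout group 1 library, replicate 1, was at 70.7 TPM and the next at 29.9 TPM. The S1 and S2 markers had values above 0 for 10 of 11 genes in the same comparison (median log2 0.29, beside 0.00 over all genes, 0 called). Their score averaged 4.07 ± 0.69 in the wild-type and 4.34 ± 1.17 in the knockout samples of this comparison. With that score as a covariate the value of Slc6a19 was log2 0.59, and the cause was not tested.

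Dapagliflozin likewise gave 0 of 9 calls, averaged over 4 pairs, where 0% of all genes were called and 631 had an unadjusted p under 0.05 (none of them a carrier). In the single pairs 0 of 9 were called against 0.00648% of genes (nondiabetic wild type), 0% (nondiabetic knockout), 0% (Akita wild type) and 0% (Akita knockout). Slc3a1 had the lowest averaged value, log2 -0.23 (SE 0.13, 95% interval -0.49 to 0.04, unadjusted p 0.0934, adjusted p 0.999). The 4 single values of Slc3a1 were all below 0, at -0.24, -0.45, -0.02 and -0.20. In nondiabetic wild-type samples Slc3a1 lay at 401, 882 and 1180 TPM with vehicle and at 456, 733 and 1019 TPM with dapagliflozin (lowest, median and highest). In nondiabetic knockout samples it lay at 727, 948 and 1045 TPM with vehicle and at 213, 821 and 1170 TPM with dapagliflozin. The low end of that group was replicate 3, the lowest of all 52 libraries for Slc3a1 and Slc7a13. Its light chain Slc7a13 had an averaged value of log2 -0.13 (SE 0.16).

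Semaglutide was compared with vehicle and with dapagliflozin in Akita wild-type mice, and 0 of 9 carriers were called in either comparison, where 0% of genes were called. The semaglutide libraries had library numbers 88 to 99, all above those of the vehicle (1 to 82) and dapagliflozin (17 to 78) libraries. A difference tied to library number cannot be told apart from treatment in either comparison. Against vehicle, 800 genes had an unadjusted p under 0.05 and against dapagliflozin 543, with none of the carriers among them. Slc7a13 differed from vehicle by log2 0.00 (95% interval -0.67 to 0.68), or 0.63-fold to 1.60-fold. Slc6a19 had the largest value, log2 0.80 (SE 0.61, adjusted p 0.998). Its 5 semaglutide libraries were at 65.8, 7.11, 30.5, 8.24 and 7.19 TPM, against 4.65, 8.11 and 16.3 TPM (lowest, median and highest) with vehicle. The difference rested on 2 of the 5 libraries, and the other 3 lay inside the vehicle range. Of the 11 S1 and S2 markers, 10 also had values above 0 here (median log2 0.32, beside -0.01 over all genes, 0 called). Of the 56 markers of other cell types, 15 had values below 0 (median log2 0.20, 0 called). The value of Slc6a19 was log2 0.54 with the S1 and S2 score as a covariate and 0.46 with the score of other cell types. Over libraries Slc6a19 had r = 0.87 with the S1 and S2 score. Cell mix and carrier level therefore cannot be told apart by these fits, and the cause was not tested.

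Tests of whether one factor changed the effect of another also gave 0 of 9 calls. They called 0% of genes for diabetes by knockout, 0.00648% for diabetes by dapagliflozin and 0% for knockout by dapagliflozin. The largest value was log2 0.64 (SE 0.58) for Slc6a19, diabetes by knockout, and the lowest was log2 -0.55 (SE 0.37) for Slc7a7, diabetes by dapagliflozin.

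While the groups did not separate the carriers, single libraries did, and 2 sets of carriers varied in opposite directions between them. After group means were removed, Slc7a13, Slc3a1, Slc1a1 and Slc6a18 varied together over the 52 libraries, with Pearson r between 0.57 (Slc7a13 with Slc6a18) and 0.84 (Slc3a1 with Slc1a1). The former fell to 0.38 without the 2 libraries farthest from the median (Spearman rho 0.40 over all). Slc7a13 and its heavy chain Slc3a1 had r = 0.79 (Spearman rho 0.70), and 0.70 without the 2 libraries farthest from the median. Slc6a19 and Slc7a8 formed the opposite pair (r = 0.84, rho 0.76, and 0.82 without the 2 farthest on Slc6a19). Slc3a2 went with them, at r = 0.75 with Slc6a19 and 0.65 with Slc7a8. Between the sets r was negative, for instance -0.60 between Slc7a13 and Slc6a19. These values are descriptions over libraries that share their scaling and the mix of cells in each cut, and no p is given.

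Marker genes outside the 9 showed the same split. The r with the S1 and S2 score was 0.93 for Slc7a8 and 0.87 for Slc6a19. Of 8241 genes, 1 had a higher r with that score than Slc7a8 and 10 had a higher r than Slc6a19. Slc3a2 (r = 0.69) and Slc7a7 (r = 0.50) followed it less closely. With the S3 score, r was 0.84 for Slc7a13, 0.85 for Slc3a1, 0.81 for Slc1a1 and 0.59 for Slc6a18, the last falling to 0.36 without the 2 farthest libraries. Of the 8241 genes, whose median r with the S3 score was 0.20, 53 had a higher r than Slc7a13. For Slc3a1 the number was 42, for Slc1a1 79 and for Slc6a18 839. Slc7a13 had r = -0.58 with the S1 and S2 score and -0.73 with the score of other cell types. With the TPM sum of the library it had r = 0.37 (Spearman rho 0.42), the highest of the 9 carriers, followed by Slc6a18 at 0.18. The parts of other cell types and of the TPM sums in these relations were not tested.

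**Figure D3:**
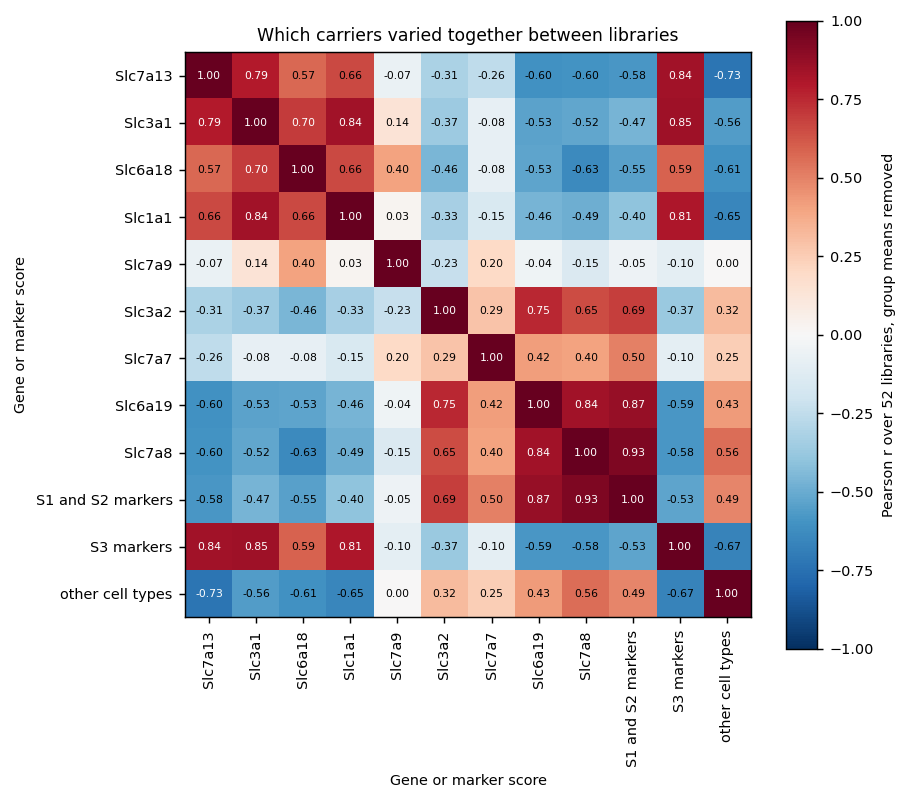
Pearson r between the 9 carriers and 3 marker scores over 52 libraries after removal of group means (red positive, blue negative; both axes list genes and scores). Slc7a13, Slc3a1, Slc6a18 and Slc1a1 form a block with r of 0.57 to 0.84, Slc3a2, Slc6a19 and Slc7a8 form another with the S1 and S2 markers, and Slc7a9 stands between them.

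Slc6a18 and Slc6a19, on a shared strand 1721 bases apart, had r = -0.53 with each other, and Slc7a7 and Slc7a8, on a shared strand 304 kb apart, had r = 0.40. Slc7a9 joined neither set, although it shares its heavy chain with Slc7a13: r was -0.07 with Slc7a13, 0.14 with Slc3a1, -0.05 with the S1 and S2 score and -0.10 with the S3 score. Its highest r among the carriers was 0.40, with Slc6a18.

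The libraries at the ends of the S1 and S2 score show the contrast in levels. The lowest, nondiabetic wild-type vehicle replicate 5 (score 2.96), had 1529 TPM of Slc7a13, 10.9 TPM of Slc6a19, 2.12 TPM of Slc7a8 and 4.55 TPM of Slc5a2. The highest, Akita knockout vehicle replicate 1 (score 6.06), had 558 TPM of Slc7a13, 70.7 TPM of Slc6a19, 20.8 TPM of Slc7a8 and 164 TPM of Slc5a2. Slc7a9 was at 48.8 TPM in the former and 95.9 TPM in the latter. Group means of this score ran only from 3.93 to 4.34, beside SDs within groups of 0.63 to 1.17, and the 9 groups overlapped in it. The libraries compared here also differ in diabetes and Sglt1 genotype. The group means of Slc7a9 were 52 TPM in nondiabetic wild-type vehicle and 71.4 TPM in Akita knockout vehicle samples.

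**Figure D4:**
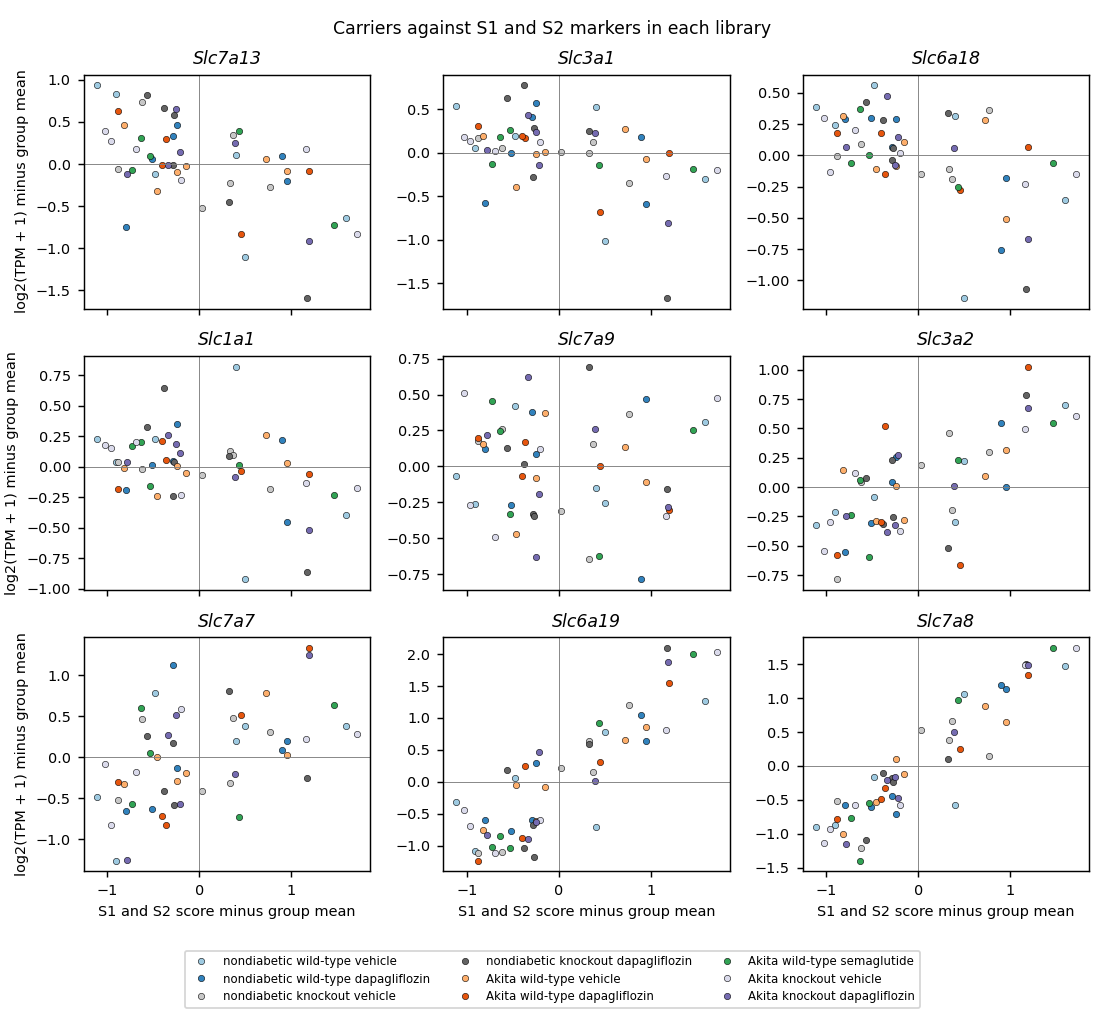
Log2(TPM + 1) of each carrier (vertical axis) against the score of S1 and S2 markers (horizontal axis), both minus their group means, for 52 libraries coloured by group. Slc6a19 and Slc7a8 climb along the score (r of 0.87 and 0.93). Slc7a13 and Slc6a18 decline (r of -0.58 and -0.55), and Slc7a9 shows no slope (r of -0.05). Each r is over all 52 libraries, and the decline is not seen in every single group.

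The genes most like each carrier were sought among 8341 genes of at least 10 TPM. Slc7a13 was most like Canx, the chaperone calnexin of the endoplasmic reticulum (r = 0.91), Pank1, a pantothenate kinase of coenzyme A synthesis (0.89), and Fuca2 (0.89). Slc3a1 was most like Mep1a, a subunit of the brush-border protease meprin (0.96), Cyp2j11 (0.94) and Ugt3a2 (0.93). Slc1a1 was most like Slc27a2, a fatty acid carrier and acyl-CoA synthetase (0.89), Rgl1 (0.87) and Ghr, the growth hormone receptor (0.87). With scaling by median ratios Rgl1 fell to rank 20 (r = 0.78). Slc6a18 was most like the vitamin C carrier Slc23a1 (0.88), Methig1 (0.86) and Gramd1b (0.84).

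Slc7a8 was most like Gatm, the first enzyme of creatine synthesis (0.92), the organic anion carrier Slc22a8 (0.91) and the transcription factor Maf (0.91). Slc6a19 was most like the lactate carrier Slc5a12 (0.88), Gatm (0.86) and Slc22a8 (0.85), and Slc5a12, Gatm and Slc22a8 are themselves in the S1 and S2 list. Slc3a2 was most like Ugt1a7c (0.70), which shares exons with other genes of its cluster, Slc22a8 (0.68) and Slc16a12 (0.65). For Slc7a9 the highest values were 0.70 with Slc25a17, a peroxisomal carrier, 0.60 with Flvcr2 and 0.60 with Katnal1. For Slc7a7 they were only 0.56 with Tlr12, 0.55 with Igfbp4 and 0.55 with Hdc.

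Other amino acid carriers also showed no detected difference. Of 51 further carriers listed, 37 had a row and 33 were tested, and 0 of 33 were called in any of the 20 comparisons. Their median averaged diabetes difference was log2 -0.02 (0.03 over all genes), and 4 of 33 had an unadjusted p under 0.05, near the share of 13.4% of all genes. The most abundant were the taurine carrier Slc6a6 at 530 ± 151 TPM (SD, n = 52), Slc38a10 at 278 ± 45.2 TPM, Slc6a20b at 248 ± 46.8 TPM and the peptide carrier Slc15a2 at 214 ± 51.2 TPM. They were followed by the glutamine carrier Slc38a3 at 163 TPM, Slc6a13 at 134 TPM, Slc6a20a at 72.6 TPM, Slc36a1 at 64.3 TPM, the creatine carrier Slc6a8 at 31.2 TPM and Slc1a4 at 28.7 TPM. Slc6a20a and Slc6a20b are related genes, and how the counting divided any reads that fit both is uncertain. Slc6a20b (r = 0.81), Slc38a3 (0.76) and Slc6a13 (0.73) followed the S3 score, and Slc6a8 followed the S1 and S2 score (0.65).

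Cltrn (collectrin), the partner of SLC6A19 and SLC6A18 in the kidney, was at 252 ± 78.2 TPM (SD, n = 52) and was not called in any comparison. It had r = 0.47 with the S3 score and -0.03 with the S1 and S2 score.

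Genes that use or sense the transported amino acids were not called either. For averaged diabetes, 0 of 12 tested genes of glutathione and cysteine metabolism were called, 6 had an unadjusted p under 0.05 (13.4% of all genes did) and the median was log2 0.23 (0.03 over all genes). For 12 genes of glutamate and ammonia handling the count was 0 and the median 0.02. For 16 tested genes of the ATF4 amino acid response the count was 0 and the median -0.05. All 3 lists had 0 calls in each of the 20 comparisons.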

How the data were processed

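The authors deposited log10 TPM values per gene, computed on GRCm38 per the submitters' processing notes. A stranded total RNA kit was used on 0.5 ng of RNA per sample, per the labels' protocols. Aligner, annotation, use of strand, read number and scaling are each not given in the sources used here. The 2 samples without a column, both Akita wild-type (semaglutide replicate 1, dapagliflozin replicate 2), were not analysed here. Depth is thus unknown, and no counting error could be given.

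The log was undone to get TPM, and blanks (69605) counted as 0. The test took the 15424 of 19068 genes whose mean reached 1 TPM. In R 4.3.3, limma 3.58.1 fitted a mean for each of the 9 groups to log2(TPM + 1) (robust empirical Bayes with a trend; data.table package, version 1.17.8), with 20 comparisons and an F test. Fold changes are on this scale and understate the change of low genes. P-values were adjusted by Benjamini-Hochberg over all tested genes. Replicates were numbered in accession order.

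The members and lists were chosen with earlier results of these data known. The rule for names took all 9 carriers, up to 4 called genes per list and comparison, the 10 most abundant other carriers and the 3 most similar genes of each carrier among those of at least 10 TPM. Called list genes not described above are Slc2a2 (an S1 and S2 marker, averaged diabetes, log2 0.67, adjusted p 0.0271 in limma), Vwf (endothelium, diabetes in wild-type vehicle samples, log2 -1.53, adjusted p 0.00844 in limma) and Slc5a1, the knocked-out gene, which is in the S3 list. Slc5a1 was left out of the S3 score. A result that the rule gives is not reported here.

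Alternatives were library weights, no filter, a pseudocount of 0.1, scaling by median ratios, equal TPM sums without mitochondrial genes, a fit of only the compared groups, and a covariate (the S1 and S2 score, the other cell type score or the library number). Each library was also left out in turn. The S3 score as a covariate and the removal of extreme libraries were chosen after seeing the data.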

Additional observations from a re-analysis of the deposited data

Results flagged for a closer look

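In 81 groups of 5 or 6 values, 9 carriers in 9 groups, 8 had a highest or lowest library far from the rest. This was by Dixon's test at the 95% level on linear TPM. Chance gives about 1 in 20, or 4.05, only where values are normal and groups independent. Levels of Slc6a19 and Slc7a8 were skewed to high values and carriers varied together, so whether 8 exceeds chance cannot be told. For Slc6a19 the flagged libraries were nondiabetic knockout dapagliflozin replicate 3 (48.9 TPM, next 16.6), Akita knockout vehicle replicate 1 (70.7 TPM, next 29.9) and Akita knockout dapagliflozin replicate 4 (50.6 TPM, next 18.5). For Slc7a8 it was nondiabetic knockout dapagliflozin replicate 3 again (15.4 TPM, next 5.19). For Slc7a7 these were nondiabetic wild-type dapagliflozin replicate 5 (38.1 TPM, next 19.7) and Akita wild-type vehicle replicate 3 (27.3 TPM, next 15.8). Slc7a9 was high in nondiabetic knockout dapagliflozin replicate 2 (79.5 TPM, next 53.4). Slc3a1 was low in nondiabetic knockout vehicle replicate 2 (727 TPM, next 927).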

How the results depend on the processing

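None of the 9 carriers was called in any of 5877 refits of single differences, under 11 other settings and with each of the 52 libraries left out in turn, so each count stayed at 0 (range 0 to 0 with a library left out). The smallest adjusted p was 0.129, for Slc3a1 with averaged diabetes and the library number as a covariate (log2 0.32). The sign changed in 645 refits, in 24 of them with a value beyond 1 SE, and 86 refits moved by more than 1 SE. With averaged dapagliflozin, Slc3a1 had log2 -0.29 (unadjusted p 0.00028, adjusted p 0.393 in limma) with the S3 score as a covariate and -0.31 (adjusted p 0.967) without the 2 libraries highest in other cell types. With averaged diabetes, the adjusted p of Slc7a9 ran from 0.168 to 0.555 over these settings and was at least 0.186 with a library left out. Of 324 recomputed correlations, 7 left the 95% interval of the reported r: without the 2 farthest libraries Slc6a18 had r = 0.52 with Slc3a1, 0.46 with Slc1a1 and 0.36 with the S3 score, each by either measure, and Slc1a1 had a Spearman rho of 0.69 with the S3 score.

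Rescaling without mitochondrial genes moved the median of all genes, for example to 0.26 for knockout in nondiabetic dapagliflozin samples and to -0.22 for dapagliflozin in nondiabetic wild-type samples, against -0.03 and 0.03. No paired analysis was possible because no number in the labels is shared between groups. Limits are the unknown depth, the unequal sums of TPM, 5 or 6 libraries per group and the unequal levels of early segment markers between libraries.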
